A study of Mus musculus with 2 samples.

Results

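The expression of 9 genes used to name macrophage polarization was followed through 2 single-cell RNA sequencing libraries of sorted mouse alveolar bone cells. The genes were found in the tables by their symbols, and all 9 had a row among the 27998 genes of both count tables. The classical set held 5 genes, Nos2, Irg1, Il6, Ptgs2 and Tnf, and the alternative set held 4, Arg1, Mrc1, Chil3 and Il10. One library came from control mice. The other, titled as the case library, came from mice under orthodontic tooth movement (OTM), in which a nickel-titanium coil spring pulled the left first molar toward the incisors for 7 days. Both groups were male C57/B6 J mice of 8 weeks with no transgene or drug, and cells carrying the surface markers F4/80 and CD11b were sorted from digested alveolar bone around the left maxillary first molar. A total of 20 mice was divided between both groups, and how many were pooled into each library is not given in the sources used here. With 1 library per group, the differences between control and OTM have no replicate check. They compare these 2 libraries, and no p-value was computed.

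Classical activation is the response of macrophages to interferon gamma and to bacterial products, which are sensed by Toll-like receptors that act through NF-kB. It brings nitric oxide, itaconate, prostaglandins and the cytokines IL-6 and TNF, and in bone IL-6, TNF and prostaglandin E2 are known to promote osteoclast formation. Alternative activation follows IL-4 and IL-13 through STAT6 and brings arginase, the mannose receptor and chitinase-like proteins, while IL-10 is an anti-inflammatory cytokine that macrophages also make after classical stimuli. The 2 programmes were described in cultured cells, and in tissues single macrophages can carry genes of both.

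The control library held 2835 cells after filtering, with 14493851 unique molecular identifiers (UMIs, 1 count per captured RNA molecule) and a median of 3998 per cell. The OTM library held 2052 cells with 16472699 UMIs and a median of 6862 per cell, so levels are given as UMIs per 1000000 UMIs of a group's cells (CPM) and shares of cells after thinning each cell to 2000 UMIs. Joint clustering without the 9 genes gave 20 cell groups. Of these, 8 were monocyte and macrophage groups with 1368 control and 897 OTM cells, and 6 were neutrophil groups with 1166 and 960 cells. The labels call the sorted cells alveolar macrophages, but the neutrophil groups made up 41.1% of the control and 46.8% of the OTM cells. Adgre1, the gene of F4/80, was at 7.66 and 5.59 CPM in the neutrophil groups and at 90.5 and 104 CPM in the monocyte and macrophage groups. Both libraries shared 6 cell barcodes. S100a8, a gene that neutrophils express at very high levels, was at 6382 CPM in the control and 15040 CPM in the OTM monocyte and macrophage groups, against 206648 and 187316 CPM in the neutrophil groups. All 15 neutrophil markers used to name groups were detected in the monocyte and macrophage groups of both libraries, and their summed level was 4742 CPM in control and 7905 CPM in OTM, against 130090 and 133543 CPM in the neutrophil groups. In the monocyte and macrophage groups these markers did not move alike. Il1r2 was at 172 CPM in control and 821 in OTM, Lcn2 at 246 and 952, and Mmp8 at 165 and 555. Ngp went from 1123 to 1824 CPM, while Camp was at 1158 and 1134 CPM and Csf3r at 75.2 and 63.9 CPM. Where this RNA came from, and its part in the results, was not tested. Results beside which it matters are given also over droplets with S100a8 under 1% of UMIs, which kept 1278 of 1368 control and 680 of 897 OTM cells.

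All 9 genes are protein-coding genes in the mouse genome (GRCm38, the build also named mm10). Nos2 lies at chr11:78920787-78960254, Irg1, annotated as Acod1, at chr14:103046977-103056573, and Il6 at chr5:30013114-30019981, all on the plus strand. Ptgs2 lies at chr1:150100031-150108227 on the plus strand, and Tnf at chr17:35199381-35202007 on the minus strand. Arg1 lies at chr10:24915221-24927484 on the minus strand, Mrc1 at chr2:14229392-14332057 on the plus strand, Chil3 at chr3:106147554-106167564 on the minus strand and Il10 at chr1:131019845-131024974 on the plus strand.

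Il6, Tnf and Chil3 were the members highest over control in the monocyte and macrophage groups apart from those of a few UMIs, so the 250 bases before their RefSeq start sites are shown, each 5′ to 3′ on the strand of its gene (RefSeq, build GRCm38.p6). Capitals mark matches to 7 motifs searched on both strands, the kB consensus, the STAT6 motif (TTC and GAA with 4 bases between), GAS (TTCNNNGAA), ISRE (TTTC repeated after 2 bases), C/EBP (TTGNNNAA), AP-1 (TGANTCA) and CRE (TGACGTCA).
Il6, plus strand, chr5:30012864-30013113: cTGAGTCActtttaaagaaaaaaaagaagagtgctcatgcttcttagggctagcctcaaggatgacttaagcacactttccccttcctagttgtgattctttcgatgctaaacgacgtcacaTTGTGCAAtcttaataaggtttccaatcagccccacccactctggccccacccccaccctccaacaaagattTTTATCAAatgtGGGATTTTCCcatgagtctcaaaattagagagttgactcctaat
Tnf, minus strand, chr17:35202008-35202257: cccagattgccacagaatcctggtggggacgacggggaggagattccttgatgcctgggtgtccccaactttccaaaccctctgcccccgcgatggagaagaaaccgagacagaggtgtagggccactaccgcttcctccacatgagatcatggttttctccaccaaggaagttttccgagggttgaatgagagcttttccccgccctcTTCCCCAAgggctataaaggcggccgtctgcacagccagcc
Chil3, minus strand, chr3:106167565-106167814: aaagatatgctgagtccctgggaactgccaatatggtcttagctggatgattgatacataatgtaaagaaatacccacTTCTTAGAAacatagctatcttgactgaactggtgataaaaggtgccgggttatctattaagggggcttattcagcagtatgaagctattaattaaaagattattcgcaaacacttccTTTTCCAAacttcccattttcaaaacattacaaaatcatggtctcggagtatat
The Il6 stretch held a kB match from 44 to 35 bases before the start, as well as an AP-1 match and a pair of C/EBP matches. No matches overlapped in these stretches. Tnf held 1 C/EBP match, and Chil3 held 1 GAS and 1 C/EBP match. The search of members and of all promoters also covered some bases after the start, and the members' matches all lay before it. Of the 6 members with an entry, 4 held a C/EBP match, which stood in 36.7% of the 32851 mouse promoters searched. A kB match stood in 4.51%, a GAS match in 8.30% and an AP-1 match in 7.81% of them. No STAT6 match was among the letters of the 6 members, and 6.95% of all promoters held one. The entries of Nos2, Arg1 and Il10 were not used here.

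Nos2 makes the inducible nitric oxide synthase, which turns arginine into nitric oxide and citrulline. It had 2 UMIs in the whole control library and 39 UMIs in the OTM library, a ratio of 17.2 (95% interval 4.44 to 147). All intervals are exact and cover counting error only. The 39 UMIs lay in 33 cells, with at most 3 in a cell. The monocyte and macrophage groups held 18 of them, the neutrophil groups 17, and the other groups 4. No UMI was found in the 1368 control monocyte and macrophage cells, which allows a share of cells with a UMI of up to 0.219% and does not limit the share of cells that express the gene. The OTM level of 2.43 CPM was at least 5.64-fold higher than the level that 3 counts would give in the control pool. Over the 680 OTM droplets of this pool with S100a8 under 1% of UMIs, Nos2 had 7 UMIs, at 1.35 CPM. The other 217 droplets held 11 UMIs, at 4.96 CPM. Nos2 was therefore near the limit of detection in both libraries, and its OTM counts did not gather in 1 cell group.

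Irg1 encodes the mitochondrial enzyme that makes itaconate, and it was the classical member with the most UMIs in neutrophils. In the monocyte and macrophage groups it was at 107 CPM in control and 265 CPM in OTM, a ratio of 2.47 (2.27 to 2.70). In the neutrophil groups it was at 453 and 720.0 CPM, a ratio of 1.59 (1.51 to 1.67). Neutrophils thus stood above monocytes and macrophages in both libraries, and they held 66.0% of all Irg1 UMIs in control and 62.7% in OTM. Within the neutrophils the level was lowest in the cycling immature groups and highest in the mature ones. The Camp-high cycling immature group had 108 and 112 CPM, the Mmp9-high mature group 860.0 and 1508 CPM, and the Asprv1-high mature group 1428 and 2504 CPM. Among the monocyte and macrophage groups, resident macrophage-like cells were highest, at 307 and 705 CPM, but their S100a8 level was also the highest of these groups, at 45866 and 104033 CPM. Over the droplets low in S100a8 the pool was at 81.2 and 214 CPM. The OTM value was higher in all 14 groups with at least 30 cells in each library, by 1.04 to 3.74-fold.

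Il6 encodes interleukin 6, which acts on many cells including osteoblasts and osteoclast precursors. Its level in the monocyte and macrophage groups was 180.2 CPM in control and 519.9 CPM in OTM, a ratio of 2.89 (2.71 to 3.08). The neutrophil groups were at 7.10 and 12.3 CPM, so Il6 belonged to the monocyte lineage in both libraries, which held 92.8% and 90.7% of its UMIs. The Saa3-high classical monocyte-like group had the highest level in each library, 299 and 651 CPM, with the cycling classical group next at 202 and 581 CPM. The Ly6a-high group went from 123 to 493 CPM, the Ear2-high group from 126 to 488 CPM, and the Atf3-high group, which is led by the stress and immediate early genes Hspa1a, Atf3, Jun and Fos, from 78.7 to 462 CPM. These values show that the classical monocyte-like groups lay closer together in OTM than in control. In resident macrophage-like cells Il6 was lower in OTM, with 13 UMIs in control and 2 in OTM. No Il6 UMI was found in B cell-like cells of either library. A few cells carried much of the control signal, where the top 1% of cells held 22.1% of the UMIs. In OTM the top 1% held 12.5%, and the highest cell had 109 UMIs against 55 in control.

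Ptgs2 encodes cyclooxygenase 2, the inducible enzyme of prostaglandin synthesis. It was at 358 CPM in the control and 606 CPM in the OTM monocyte and macrophage groups, a ratio of 1.70 (1.61 to 1.78), below the 2-fold limit used here. The neutrophil groups went the other way, from 118 to 79.8 CPM, a ratio of 0.676 (0.602 to 0.759). That lower value in neutrophils was not kept under other settings. It became 0.991 when cells with fewer than 200 genes per 1000 UMIs were removed, and 1.10 when each library was clustered alone. The Saa3-high group was the highest in both libraries, at 765 and 1006 CPM. Mature neutrophils of the Asprv1-high group were second in control at 628 CPM but had 306 CPM in OTM. OTM was above control in 9 of the 14 groups. Ptgs1, the constitutive cyclooxygenase, was far lower in the monocyte and macrophage groups, at 4.45 and 2.83 CPM.

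Tnf encodes tumor necrosis factor, an inducer of osteoclast formation together with RANKL. The monocyte and macrophage groups had 48.5 CPM in control and 127 CPM in OTM, a ratio of 2.61 (2.31 to 2.97). The neutrophil groups had 30.4 and 60.2 CPM, a ratio of 1.98 (1.65 to 2.38). Both pools were higher in OTM, and so was every one of the 14 groups, by 1.32 to 7.57-fold. The order of the groups differed from that of Il6. In control the highest levels were in resident macrophage-like cells at 209.7 CPM, nonclassical monocyte-like cells at 131 CPM and MHC-II monocyte-derived-like cells at 128.5 CPM, whose counting intervals overlapped. In OTM resident macrophage-like and nonclassical cells were at 276 and 277 CPM, followed by the Atf3-high group at 231 CPM and the MHC-II group at 227 CPM, again with overlapping intervals. The Saa3-high group, highest for Il6 and Ptgs2, was at only 27.2 CPM of Tnf in control and at 126 CPM in OTM.

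**Figure D1:**
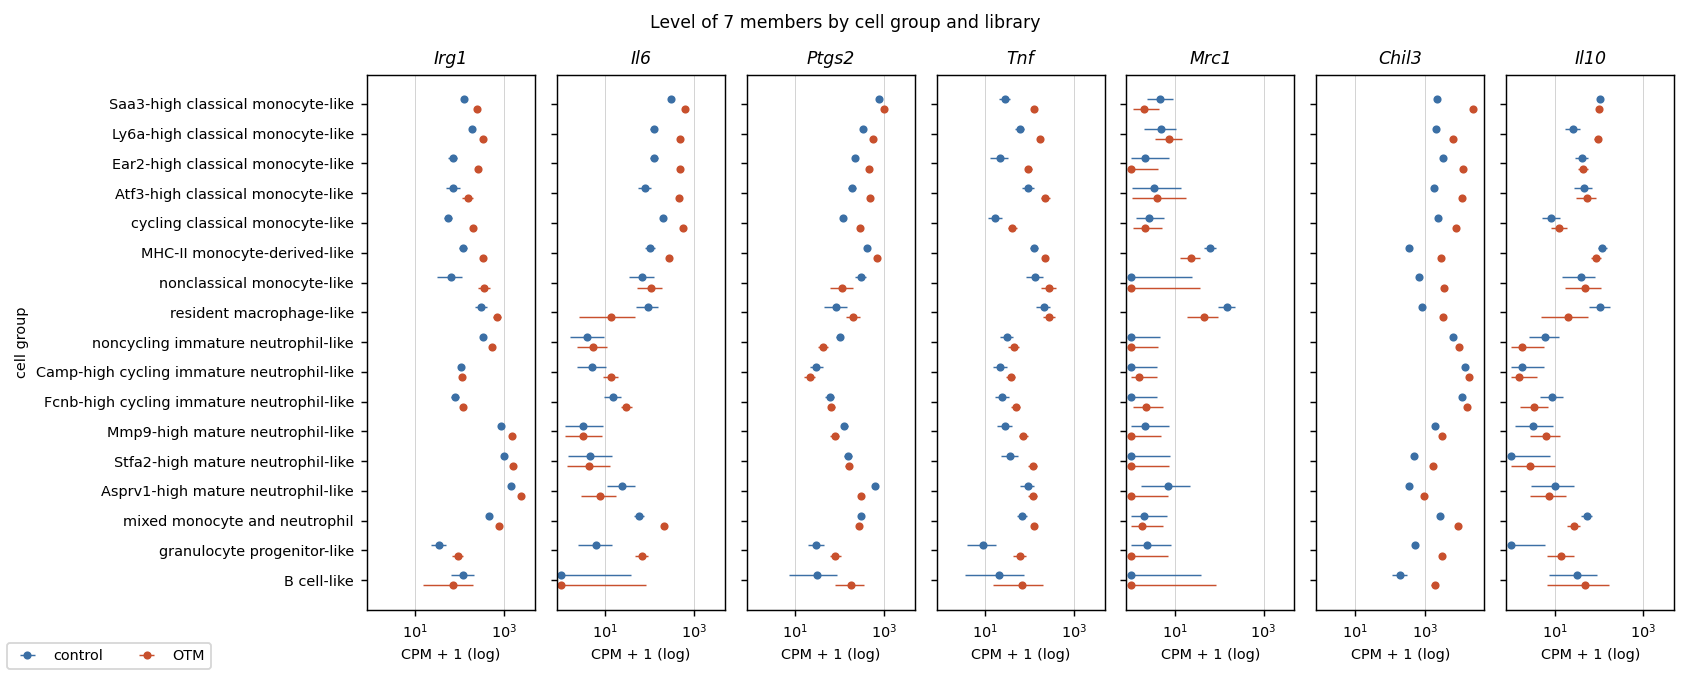
Level of 7 members in 17 cell groups, as CPM + 1 on a log axis, with control in blue, OTM in orange and bars for exact 95% counting intervals. Il6 and Il10 are high in the upper, monocyte and macrophage rows and near 0 in neutrophils, Irg1 is highest in mature neutrophils, and Chil3 is above control in every group shown.

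Arg1 encodes arginase 1, which competes with nitric oxide synthase for arginine and is the most used alternative marker in mice. It had 2 UMIs in control and 77 in OTM, of which the monocyte and macrophage groups held 2 and 74, a ratio of 34.8 (9.29 to 292). A single OTM cell of the Ear2-high group held 70 of them. Without that cell the ratio in the monocyte and macrophage groups was 1.88, and over droplets low in S100a8 it was 0.609. The cell had 13458 UMIs, among them 75 of Pf4, 121 of Cxcl3, 99 of Cxcl1 and 87 of Mt2, and none of Csf1r, Ccr2 or Adgre1. A further OTM cell of the same group, with 1 Arg1 UMI, also had 24 UMIs of Pf4 and none of these 3 receptor genes. Apart from that cell, Arg1 was close to absent from both libraries at this depth. Arg2, the mitochondrial arginase, was the abundant form, at 132 and 429 CPM in the monocyte and macrophage groups, a ratio of 3.25, and at 128 and 297 CPM in neutrophils.

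Mrc1 encodes the mannose receptor CD206, an endocytic receptor of tissue macrophages. It was the only member lower in OTM past 2-fold, at 11.3 CPM in control and 4.59 CPM in OTM over the monocyte and macrophage groups, a ratio of 0.404 (0.262 to 0.612). These levels rest on 79 and 34 UMIs. Resident macrophage-like cells were highest, at 147 and 44.9 CPM, and the MHC-II group was next, at 62.1 and 21.6 CPM. Both were lower in OTM, while the other monocyte groups stayed at or under 6.48 CPM in each library. When each library was clustered alone the ratio was 0.652.

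Chil3 encodes a chitinase-like protein, Ym1, that is secreted by myeloid cells and is made in quantity by neutrophil precursors as well as by alternatively activated macrophages. It was the most abundant member in UMIs. In the monocyte and macrophage groups it was at 2069 CPM in control and 12399 CPM in OTM, a ratio of 5.99 (5.89 to 6.10). In the neutrophil groups it was at 7546 and 11036 CPM, a ratio of 1.46 (1.44 to 1.48), which turned to 0.974 under the filter of 200 genes per 1000 UMIs and to 0.903 when each library was clustered alone. Monocytes and macrophages held 24.9% of Chil3 UMIs in control and 50.5% in OTM. Most Chil3 UMIs thus came from neutrophils in control, 69.9%, whereas in OTM neutrophils held 42.4%.

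The Saa3-high classical monocyte-like group, led by Saa3, Apoc1, Ms4a8a and Apoe, had the largest Chil3 ratio of the 14 groups, from 2162 CPM in control to 23979 CPM in OTM, 11.1-fold (10.7 to 11.5). In OTM it was above the Camp-high cycling immature neutrophils, at 18095 CPM, which had been the highest group in control at 13837 CPM. The Ear2-high group went from 3360 to 12175 CPM, the Atf3-high group from 1872 to 11332 CPM, the cycling classical group from 2288 to 7781 CPM and the Ly6a-high group from 2033 to 6255 CPM. The MHC-II group had the lowest monocyte level in both libraries, 348 and 2894 CPM. All 14 groups were higher in OTM, the smallest ratio being 1.31 in Camp-high neutrophils. In B cell-like cells, which should lack the gene, the level was 192 CPM in control and 1927 CPM in OTM, where 1 cell held 62 of the 84 UMIs. Granulocyte progenitor-like cells, which precede the Chil3-rich neutrophils, were at 507 and 3096 CPM.

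The difference ran through most cells of a group. In thinned Saa3-high cells the median Chil3 count was 3 in control, with an upper quartile of 6, and 46 in OTM, with a lower quartile of 25. The upper quartile of control thus lay below the lower quartile of OTM. The median was 1 and 7 in the Ly6a-high group, 5 and 19.5 in the Ear2-high group, 2 and 13 in the cycling classical group, and 0 and 2 in the MHC-II group. In Camp-high neutrophils it was 26 and 35. Over droplets with S100a8 under 1% of UMIs the pool levels were 1951 and 12269 CPM, a ratio of 6.29, so the ratio was as large without the droplets richest in S100a8. For every 1000 S100a8 UMIs the monocyte and macrophage groups held 324 Chil3 UMIs in control and 824 in OTM, against 36.5 and 58.9 in the neutrophil groups, but the monocyte groups did not move alike on this scale. The value went from 676 to 3308 in the Saa3-high group and from 893 to 501 in the Ear2-high group. In the whole pool it was 16.8 and 17.6 for Irg1, 7.60 and 8.43 for Tnf and 56.0 and 40.3 for Ptgs2, so of these 4 members only Chil3 was higher past 2-fold relative to S100a8. Chil4, a near-identical neighbour of Chil3, had only 3 and 8 UMIs in all, and how reads shared by the pair were counted is not known, so counts of Chil3 may include some of its reads.

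**Figure D2:**
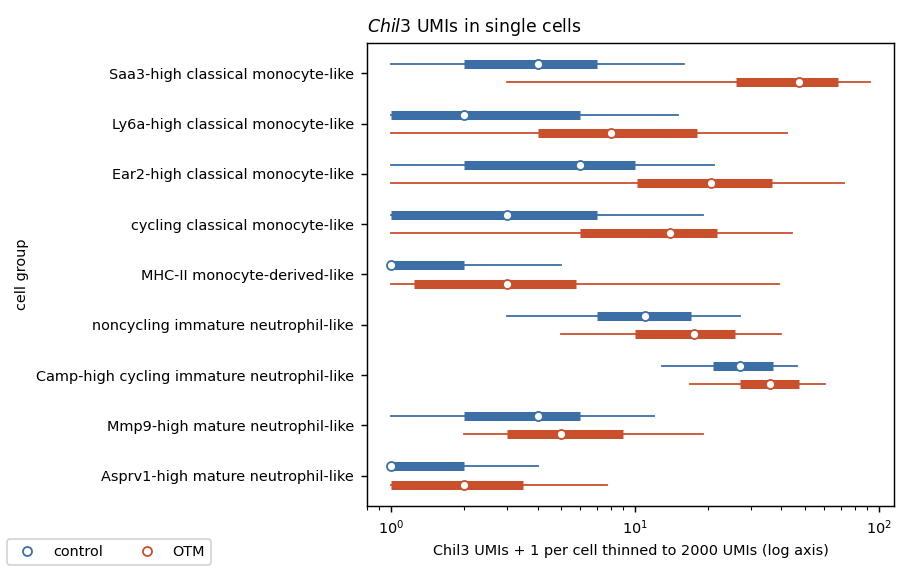
Chil3 UMIs + 1 per cell after thinning to 2000 UMIs, on a log axis, in 9 cell groups, with thin lines from the 5th to the 95th percentile, thick bars from the lower to the upper quartile and circles for the median. In the Saa3-high group the median is 3 UMIs in control (blue) and 46 in OTM (orange), while Camp-high neutrophils go from 26 to 35.

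Il10 encodes interleukin 10, which limits inflammatory cytokine production by macrophages. It differed least between the libraries, at 52.4 CPM in control and 61.9 CPM in OTM over the monocyte and macrophage groups, a ratio of 1.18 (1.03 to 1.36). With every group given the same weight the ratio was 0.937. The group values moved in both directions. Saa3-high cells were at 102 and 97.5 CPM and the MHC-II group at 117 and 85.1 CPM, whereas the Ly6a-high group went from 24.2 to 91.7 CPM. Il10 was close to the monocyte lineage, which held 80.0% and 88.6% of its UMIs. Among members with over 100 UMIs in each library it was the one whose UMIs gathered most in a few cells, since the top 1% of cells of the pool held 36.2% of the UMIs in control and 26.6% in OTM. Over droplets low in S100a8 the levels were 54.7 and 79.3 CPM, a ratio of 1.45.

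Members were called past the fold at a ratio of at least 2 or at most 0.5 with at least 20 UMIs over both libraries. In the monocyte and macrophage groups 8 members could be called, and 5 of them were higher in OTM (Irg1, Il6, Tnf, Arg1 and Chil3), against 2.62% of the 9793 genes that met the same count. One member, Mrc1, was lower, against 6.73% of genes. The median log2 ratio of the 8 members was 1.35, beside -0.16 over all those genes. By set, 3 of 4 classical members were higher and none lower, and of 4 alternative members 2 were higher and 1 lower. The count of higher members was 4 without the single cell that held 70 of the 74 Arg1 UMIs, which leaves Chil3 as the only higher alternative member. Among the neutrophil groups none of 6 members was past the fold in either direction, beside 2.64% of genes higher and 5.71% lower, and their median log2 ratio was 0.61 beside -0.07. This count rests on members near the limit, Tnf being at 1.98, and it was 2 with at least 200 genes per 1000 UMIs, 3 with each library clustered alone and 1 under TMM scaling, the mean over cells, members kept in the clustering or the deepest cells left out. Over all kept cells, where composition enters as well, 5 of 9 members were higher and 1 was lower, beside 1.98% and 8.14% of genes. The Irg1 ratio there was 1.92, that of Il10 was 1.00 and that of Chil3 was 2.77.

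Shares of cells with a UMI followed the same pattern at equal depth. Cells with fewer than 2000 UMIs were left out of thinned shares, which kept 1328 of 1368 control and all 897 OTM monocyte and macrophage cells. After thinning to 2000 UMIs, Il6 was found in 17.5% of control and 42.1% of OTM monocyte and macrophage cells, where the unthinned shares were 28.2% and 62.2%. For Irg1 the thinned shares were 15.4% and 32.3%, for Ptgs2 37.2% and 53.5%, for Tnf 8.13% and 20.6%, and for Chil3 69.9% and 91.2%. These 5 members were thus found in more OTM cells also at equal depth. Mrc1 was found in 2.03% and 1.00% of thinned cells and Il10 in 6.48% and 8.14%. Among B cell-like cells, at median depths of 3408 and 4701 UMIs, no thinned cell held Il6, while 4 of 24 control and 1 of 7 OTM cells held Irg1 and 5 of 24 and 4 of 7 held Chil3. The control share of Irg1 in monocytes and macrophages was thus close to that in B cell-like cells. With 24 control and 7 OTM cells, the B cell-like cells set a background only loosely. The part of background RNA in the Irg1 shares was not tested.

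To see whether single cells mixed both sets, cells thinned to 2000 UMIs were counted by whether they held at least 1 UMI of a classical and of an alternative member. In the monocyte and macrophage groups 41.8% (39.1 to 44.5%) of 1328 control cells and 77.5% (74.6 to 80.2%) of 897 OTM cells held both. Without thinning, at median depths of 4269.5 and 7566 UMIs, the shares were 63.1% and 95.5%. Cells with a classical UMI alone were 15.4% in control and 6.91% in OTM, and cells with neither set were 11.2% and 1.34%. Mixed cells were therefore the most common kind in both libraries. The product of the separate shares of the sets, which is what unrelated draws would give, was 41.96% in control and 77.4% in OTM, next to the observed 41.8% and 77.5%. Over droplets with S100a8 under 1% of UMIs the shares with both were 40.9% and 77.2%. Of B cell-like control cells, at a median depth of 3408 UMIs, 1 of 24 held both sets, and of granulocyte progenitor-like cells 5.66% in control and 22.9% in OTM did.

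Chil3 carried most of this mixing. With Arg1, Mrc1 and Il10 as the only alternative genes, 6.02% (4.81 to 7.44%) of control and 7.13% (5.54 to 9.02%) of OTM monocyte and macrophage cells held both sets, and the libraries differed by less than their counting intervals. Unthinned, these shares were 12.1% and 19.0%. Of the cells that did hold Arg1, Mrc1 or Il10, 70.8% in control and 78.0% in OTM also held a classical UMI, beside 57.2% and 84.4% of all cells of the pool. Neutrophils held both sets in 39.7% and 54.9% of cells with Chil3 counted and in 0.677% and 0.312% without it. Thinning kept 1034 of 1166 control but all 960 OTM neutrophils. Of the Asprv1-high mature neutrophils it kept 96 of 136 control and all 187 OTM cells. The neutrophil shares of both libraries thus rest on unlike selections of cells. Of the monocyte and macrophage groups the Saa3-high group had the largest share of mixed cells, 58.6% and 91.2%, and kept 9.52% and 10.1% without Chil3. In the MHC-II group, which had the highest Mrc1 level of the larger groups, the shares were 29.2% and 64.3% with Chil3 and 13.9% and 10.2% without it.

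**Figure D3:**
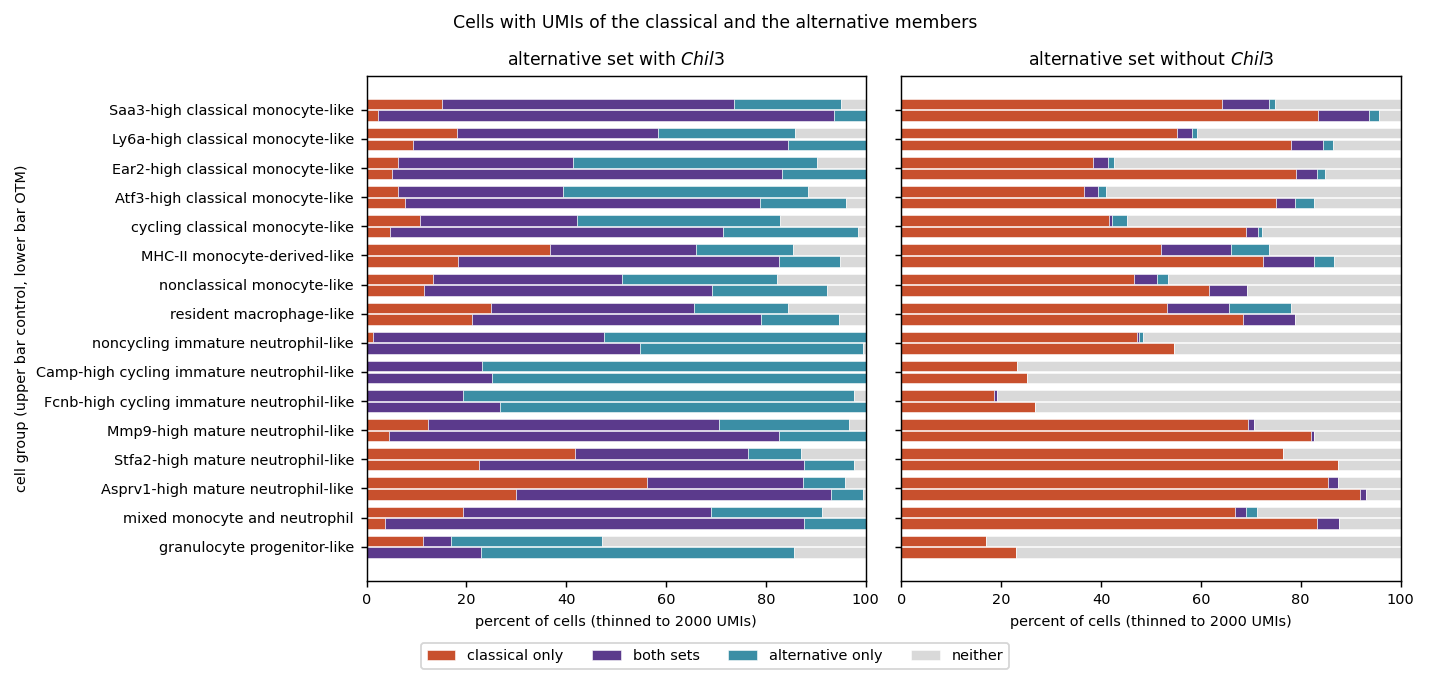
Share of cells, thinned to 2000 UMIs, with UMIs of classical members alone, of both sets, of alternative members alone and of neither, in 16 cell groups, with the control bar above the OTM bar in each pair, and with Chil3 counted (left) or left out (right). In the Saa3-high group both sets were found in 58.6% of control and 91.2% of OTM cells with Chil3, and in 9.52% and 10.1% without it.

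The number of different members per cell moved in the same direction. Of thinned monocyte and macrophage cells, 3.69% in control and 16.2% in OTM held 4 or more of the 9 members, and the median was 1 and 2 members. In Saa3-high cells 6.52% and 21.2% held 4 or more. Neutrophils seldom held so many, at 0.967% and 1.56%.

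Pairs of members were looked at in the same thinned monocyte and macrophage cells. Of the 86 control cells with Il10, 29.1% also held Il6, against 17.5% of all control cells, and in OTM 46.6% of 73 Il10 cells held Il6, against 42.1% of all cells. Ptgs2 was found in 54.7% of control Il10 cells, beside 37.2% of all cells, and in 53.4% of OTM Il10 cells, beside 53.5% of all. Over the pooled groups, Il10 cells in control thus carried more of the classical genes Ptgs2 and Il6 than other cells did. Ptgs2 was at 779 against 410 CPM and Il6 at 297 against 164 CPM, with intervals that did not overlap. In OTM this was not seen for Ptgs2, at 651 against 680.2 CPM, and Tnf was lower in Il10 cells, at 75.3 against 164 CPM. The groups differ in these genes, and in control the Saa3-high group was above the pool in Il10, Ptgs2 and Il6. The part of group membership in these differences was not tested. Mrc1 and Il10, both in the alternative set, met in only 1 control and 1 OTM cell. The 27 control cells with Mrc1 had 574 CPM of Chil3, against 2038 CPM in cells without Mrc1. This pools groups as well, since Mrc1 was high in the MHC-II group, whose control cells had a median Chil3 count of 0. Levels of Chil3 by Mrc1 within single groups are not given here, and how far the difference holds there was not tested. Across Saa3-high cells Chil3 did not sort the classical genes in 1 direction. From the lowest to the highest quartile of cells by Chil3, Il6 went from 247 to 399 CPM in control and from 561 to 770.3 CPM in OTM, while Irg1 went from 116 to 80.8 CPM and from 209 to 135 CPM, with overlapping intervals in each case.

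Other genes of the 2 programmes were taken from 4 lists and read by the same fold rule in the monocyte and macrophage groups, where 2.62% of all genes were higher, 6.73% were lower and the median log2 ratio was -0.16. Of 21 further classical genes with enough counts, 9 were higher in OTM and 2 lower, with a median of 0.78. Of the higher ones, the cytokine genes Il1b and Il1a went from 1829 to 6775 CPM and from 44.5 to 325 CPM. Il12b went from 0.718 to 5.13 CPM on 5 and 38 UMIs. Il23a went from 0.431 to 11.7 CPM on 3 and 87 UMIs, so both rest on few control counts. Also higher were the chemokine genes Cxcl2, from 11011 to 23023 CPM, and Cxcl10, from 164 to 389 CPM. The receptor genes Fpr2 and Clec4e went from 67.1 to 242 CPM and from 676 to 1389 CPM. The ectoenzyme gene Cd38 went from 3.02 to 58.0 CPM. The lower ones were Cxcl9, an interferon gamma target, with 310 UMIs in control and 8 in OTM, and Ccr7, a homing receptor of mature dendritic cells, with 76 and 5 UMIs. The remaining 10 were within the fold.

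Of 17 further alternative genes, 1 was higher and 6 were lower, with a median of -0.21, and with at least 100 UMIs these counts were 0 and 2. Pdcd1lg2, a ligand of PD-1, was the higher one on 12 and 29 UMIs. The lectin genes Clec10a, Mgl2 and Cd209d were lower at 0.424, 0.080 and 0.017 of control, as were Ccl22, Klf4 and Pparg at 0.329, 0.479 and 0.399. Clec10a, Mgl2, Cd209d, Ccl22 and Ccr7 are also genes of dendritic or monocyte-derived antigen-presenting cells. Chil3 was higher in OTM, while of these 17 genes 1 was higher and 6 were lower, beside 2.62% and 6.73% of all genes. A count of 1 higher among 17 is near the share over all genes. Chil4, Ccl17, Retnla, Irf4 and Folr2 had under 20 UMIs and were not called.

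Among 22 receptor and signal transducer genes of both programmes, Ptger2, a prostaglandin E2 receptor gene, was the only one higher, from 6.60 to 22.3 CPM, none was lower, and the median was 0.13. The most abundant of the others were Cd14, the lipopolysaccharide co-receptor gene, at 4015 and 7432 CPM, Tlr2, a Toll-like receptor gene, at 485 and 672 CPM, and Ifngr1, an interferon gamma receptor gene, at 225 and 247 CPM. Of 16 enzyme genes of arginine and prostaglandin metabolism, Arg2 and Ptges, the inducible prostaglandin E synthase gene with 14 and 32 UMIs, were higher and none was lower, with a median of -0.22. The most abundant was Alox5ap, a partner protein of 5-lipoxygenase in leukotriene synthesis, at 1599.7 and 1828 CPM, and Gch1, which makes the cofactor of nitric oxide synthase, was at 207 and 311 CPM. In the neutrophil groups, where 2.64% of all genes were higher and 5.71% lower, the classical list had 6 of 17 genes higher and 0 lower, the alternative list 0 of 12 higher and 3 lower, the receptor list 3 of 21 higher and 0 lower, and the enzyme list 1 of 14 higher and 0 lower. The single enzyme gene, Arg2, was higher in both pools, while a count of 1 among 14 is near the share over all genes.

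**Figure D4:**
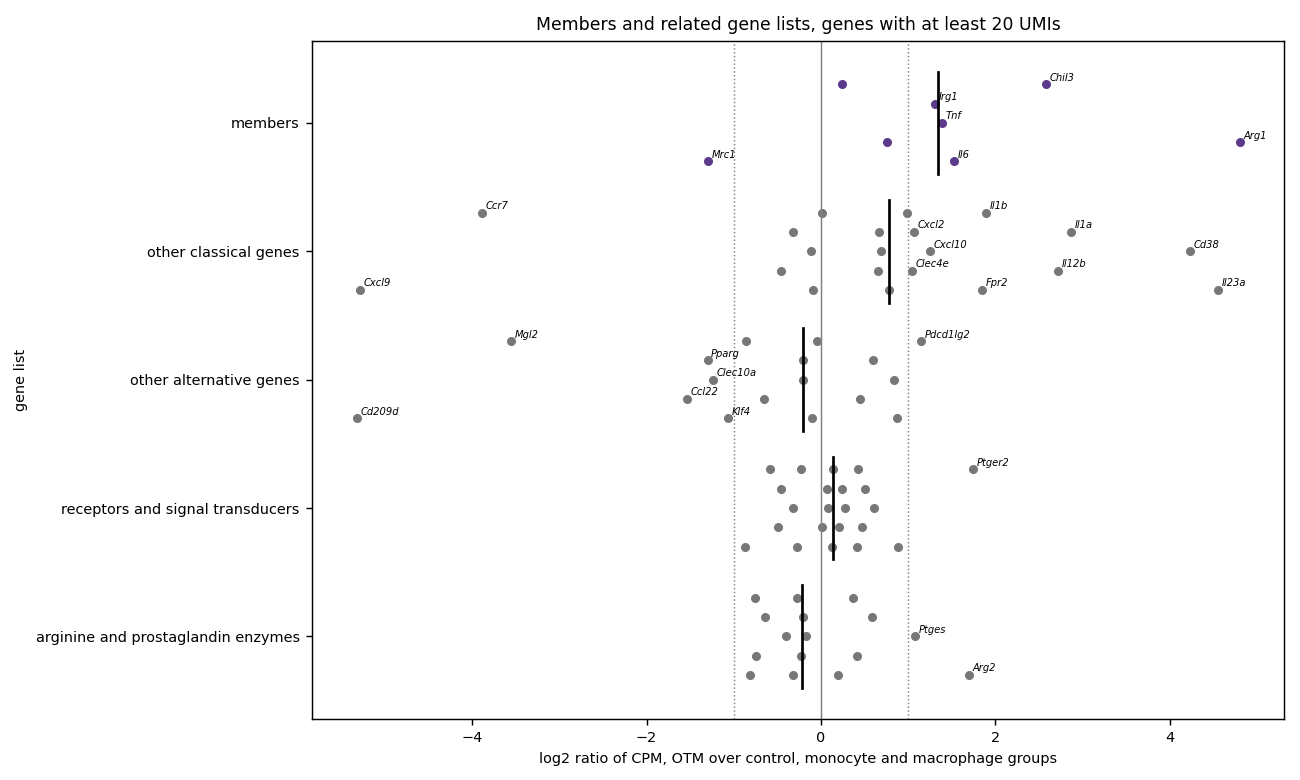
Log2 ratio of CPM in OTM over control in the monocyte and macrophage groups for 8 members (purple) and 4 related gene lists (gray), each point 1 gene with at least 20 UMIs, with black lines at the medians, dotted lines at the fold limits and names for genes past them. The medians are 1.35 for the members, 0.78 for the other classical genes, -0.21 for the other alternative genes, 0.13 for receptors and -0.22 for enzymes.

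Levels of the members followed different genes across 30 points, each a cell group in 1 library with at least 30 cells there. The nonclassical and resident macrophage-like groups entered from control alone, with 51 and 34 cells. These correlations of log2(CPM + 10) are descriptions, since the points share 2 libraries and their depth. Il6 was closest to Msr1, Cd302 and Ms4a6d (Pearson r 0.95 each), which are monocyte and macrophage surface proteins. Irg1 was closest to Grina, Rabgef1 and Rab7 (0.95 each), and Ptgs2 to Tnfaip2 (0.93), Sirpb1b (0.92) and Sirpb1c (0.91). Tnf was closest to H2-D1 (0.84), Rsrp1 (0.83) and Ccl4 (0.81), Il10 to Sgk1 (0.94), Stab1 (0.93) and Hotairm1 (0.93), and Chil3, with the weakest values, to Grk6 (0.79), Gyg (0.76) and Ilk (0.73). Among the members themselves, Il10 had values of 0.78 with Il6, 0.72 with Ptgs2 and 0.60 with Tnf, but -0.19 with the classical Irg1. With the alternative Mrc1 it had 0.57 and with Chil3 -0.06, so Il10 did not follow 1 set. Irg1 and Il6 had a weak negative value (-0.31).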

How the data were processed

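Cells sorted for F4/80 and CD11b were captured with the 10x Genomics 3' kit, 1 library per group. The authors made the deposited tables of raw UMI counts per gene and cell, and the submitters' processing notes name Cell Ranger 3.0.0, Seurat 3.0.0 and the mm10 build. Each UMI is counted once, which limits duplicates, but 3' counts are not set per length. Ratios of OTM over control were therefore taken within genes, and ranks of abundance between genes are by UMI counts and rough.

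Of 2863 control and 2058 OTM barcodes, cells with at least 200 genes and at most 5% mitochondrial UMIs were kept. A literal reading of the study's filter, 200 genes per 1000 UMIs, removed 14.6% and 39.0% of barcodes, mainly deep ones, and was kept as an alternative. Scrublet (scanpy 1.11.5) marked 0 control and 3 OTM cells as doublets, so doublet calling did not work and doublets remain.

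Libraries were clustered together in Seurat 5.3.0 (canonical correlation, 20 dimensions, resolution 1.0, the 9 genes left out). After the clusters were seen, 2 of them were split further at resolution 0.3. Groups were named "-like" from listed markers. Some names carry a high gene of the group, which is not always its leading gene. The Ctla2a-high group stayed unnamed. A group called mixed was also given no type by the naming rule, carried monocyte and neutrophil markers and stayed out of both pools. Names were rebuilt here and may differ from the study's.

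Counts were summed per group and library. Intervals are 95%, exact Poisson for levels, conditional binomial for ratios and Clopper-Pearson for shares (scipy 1.17.1). Only those for ratios were tested, on simulated Poisson counts that leave out the gathering of UMIs in few cells. Log2 ratios had 0.5 added to each count. TMM scaling (edgeR 4.0.16) was an alternative. Named genes were the 9 members, the 3 closest genes for each member with at least 200 UMIs, the list genes past the fold or, for short lists, the most abundant, and Chil4, Arg2 and Ptgs1. Positions came from GENCODE. The members and lists were chosen with earlier results of these data known.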

Additional observations from a re-analysis of the deposited data

Results flagged for a closer look

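Ptgs2 was singled out because its OTM to control ratio stood on opposite sides of 1 in the 2 pools of cells, at 1.70 in the monocyte and macrophage groups and at 0.676 in the neutrophil groups. The difference between the pools was not tested, since each pool has 1 library per group. Asprv1-high mature neutrophils, at 628 CPM in control and 306 CPM in OTM, held the largest part of the neutrophil Ptgs2 counts in both libraries. Under other settings the monocyte and macrophage ratio lay between 1.496 and 1.89 and the neutrophil ratio between 0.670 and 1.10, so the neutrophil value did not keep its direction.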

How the results depend on the processing

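No paired analysis was possible because each group is 1 library. Repeats of a count or share that answers a comparison stayed within 1.5 times its value or its interval in 71 cases and moved in 21. Repeats of a single member's ratio stayed within its counting interval in 124 cases, moved in 40 and turned in 1, that of Arg1 to 0.609 over droplets with S100a8 under 1% of UMIs. In the monocyte and macrophage groups the count of higher members was between 4 and 6, being 4 where Arg1 was no longer past the fold, while the count of lower members fell from 1 to 0 when each library was clustered alone. The ratios there ranged over 4.45 to 6.68 for Chil3, 2.75 to 3.22 for Il6, 2.25 to 2.76 for Irg1, 2.11 to 2.91 for Tnf and 1.496 to 1.89 for Ptgs2. In the neutrophil groups the count of higher members went from 0 to 2 with at least 200 genes per 1000 UMIs, to 3 with each library clustered alone and to 1 under TMM scaling, the mean over cells, members kept in the clustering, or removal of the 5% of cells with the most UMIs. The share of cells with both sets was 52.9% in control and 87.5% in OTM after thinning to 3000 UMIs, 19.9% and 55.5% with at least 2 UMIs of each set, and 6.02% and 7.13% without Chil3. With at least 100 UMIs the further classical genes came to 1 lower in monocytes and macrophages and 3 higher in neutrophils, the alternative genes to 0 higher and 2 lower, and the enzymes to 1 higher. TMM scaling, which raised log2 ratios by 0.16 in monocytes and macrophages, gave 2 alternative genes and 2 receptors higher there and 1 alternative gene higher in neutrophils. Removing the deepest cells, the S100a8 limit, equal weight for groups and leaving out the Arg1 cell were chosen after seeing the data. Where a value moved, the cause was not tested. Depth limits Nos2, Arg1 and Mrc1, whose pool counts were under 100 UMIs in each library.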
